A study of Rattus norvegicus with 16 samples.

Results

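The difference between CD103- dendritic cell-like cells and type 2 conventional dendritic cells (cDC2) was measured in 2 organs of male Lewis rats, thymus and spleen, and how far it depends on the organ is described here. For each transcript cluster (the unit that the array reports, usually 1 gene), the thymic difference, CD103- minus cDC2, was taken first, and the splenic difference was subtracted from it. This second difference, called the interaction below, is above 0 where the CD103- cells exceed the cDC2 by more in the thymus than in the spleen. It was computed for all 23188 clusters from 8 of the 16 arrays of the study, 2 in each of 4 groups. The groups were thymic CD103- cells, thymic cDC2, splenic CD103- cells and splenic cDC2, and no group carried a treatment or a genetic change in the labels. All 4 were sorted as living CD45+ MHC class II+ CD172a+ cells, the CD103- cells also as CD45R- cells lacking CD103 and the cDC2 as CD103+ cells. The study also sorted CD103+ CD172a- type 1 conventional dendritic cells (cDC1) and HIS36+ macrophages from both organs, 2 arrays each, which are used below as populations that the interaction did not involve. The labels give neither the ages of the animals nor whether the 2 replicates of a group came from separate animals, and each p-value below therefore reflects the scatter of these arrays alone, which may be technical. Each array holds RNA of many sorted cells, so a gene carried by fewer cells and a gene with less RNA per cell cannot be told apart.

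Conventional dendritic cells take up antigen, present it on MHC class II and prime T cells. In the thymus they also present self antigen to developing T cells. In mice, cDC2 of the spleen depend on Notch2 signalling, and cells with a cDC2 surface can be mixed with monocyte-derived cells and macrophages, which express complement, lysosomal and scavenger receptor genes. Notch signalling starts when a ligand such as Dll4 on a neighbouring cell leads to cleavage of the receptor, whose freed intracellular part joins the DNA-binding protein Rbpj and induces target genes such as Hes1 and Dtx1.

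Spleen dendritic cells were enriched on a density gradient and thymic dendritic cells with MHC class II beads, and only the splenic stain included an antibody to CD161. The organ and the way of isolation cannot be told apart for these groups. A change that isolation made equally in both populations of an organ cancels in the interaction. Values are log2 signals, where 1 unit is a 2-fold difference. Array medians lay between 5.88 and 5.95. The 95th percentile of 1159 olfactory receptor clusters, taken over all 16 arrays of the study as a level of no expression, was 5.78. A group mean under it is called below background here. The genes of the sort markers were checked first. Itgae, which encodes CD103, read 6.13 and 5.91 in thymic CD103- cells, 13.53 and 13.79 in thymic cDC2, 8.09 and 7.77 in splenic CD103- cells and 13.10 and 13.43 in splenic cDC2. Both CD103- groups lay below both cDC2 groups, as the gate requires, and the splenic CD103- cells lay above the thymic ones (interaction -2.31 ± 0.34 SE, limma adjusted p = 0.00188). Sirpa, which encodes CD172a, Ptprc, which encodes CD45, and the MHC class II genes RT1-Da and Cd74 did not pass the test of the interaction, with interactions of 0.35, -0.41, 0.14 and 0.06 (limma adjusted p = 0.656 to 0.968).

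The interaction passed the test (limma, Benjamini-Hochberg adjusted p under 0.05 over all clusters) for 751 clusters, which is 3.24% of those tested. It was positive for 277 (1.19%) and negative for 474 (2.04%), and each of the 751 differed by at least 1 log2 unit. Of these 751, 338 (45%) had a called CD103- to cDC2 difference in the thymus only and 230 (30.6%) in the spleen only. Another 107 (14.2%) were called in both organs in the same direction with unequal size, 51 (6.79%) were called in opposite directions and 25 in neither organ. By themselves the thymic difference was called for 2289 clusters (9.87%) and the splenic difference for 1971 (8.5%). Read the other way, the organ difference of the cDC2 alone was called for 348 of the 751 (46.3%), that of the CD103- cells alone for 161 (21.4%), both for 234 (31.2%) and neither for 8. Over all clusters the organ difference was called for 2659 (11.5%) in CD103- cells, 6.52% higher and 4.95% lower in the thymus, and for 3199 (13.8%) in cDC2, 7.63% higher and 6.16% lower. Leaving out single arrays, the interaction calls numbered 463 without thymic cDC2 replicate 1, 480 without thymic cDC2 replicate 2 and 485 without thymic CD103- replicate 2, each a drop of over 1.5 times.

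**Figure D1:**
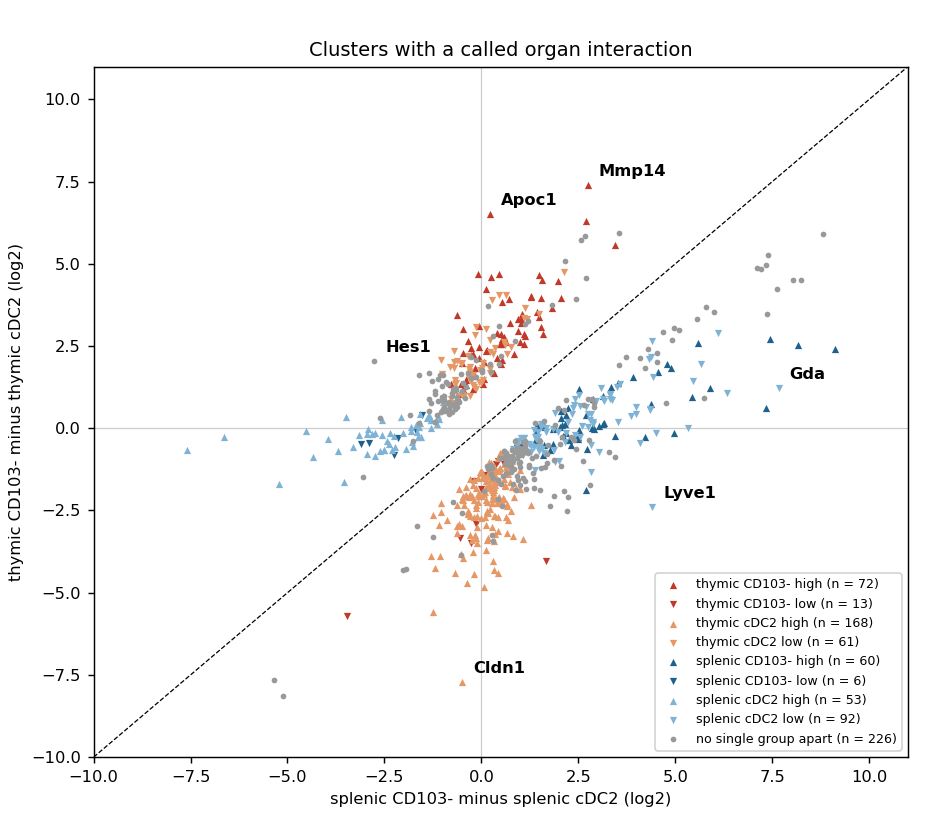
Each point is 1 of the 751 clusters with a called interaction, with the splenic CD103- minus cDC2 difference (log2) on the horizontal axis and the thymic difference (log2) on the vertical axis. Colours and symbols give the group whose mean stood apart, grey points have no single such group, and the dashed line marks equal differences in both organs. Apoc1 and Mmp14 lie far above the line, and Cldn1, Lyve1 and Gda far below it.

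To see which population in which organ made the difference, the 4 group means of each cluster were put in order. A group was taken to stand apart where its mean was the highest or the lowest and the gap to the next mean was the largest gap and at least 0.5 of the whole range. A single group stood apart in 525 of the 751 called clusters (69.9%). Thymic cDC2 stood apart as high in 168 (22.4%) and as low in 61, and splenic cDC2 as low in 92 and as high in 53. Thymic CD103- cells stood apart as high in 72 and as low in 13, and splenic CD103- cells as high in 60 and as low in 6. Of the others, 31 had both thymic means on one side of the widest gap, 19 both CD103- means, 34 were crossed, and 142 were mixed. In 249 of the 751 (33.2%) at least 1 group mean was below background, where the size of a difference depends on the floor of the array. These counts describe the called clusters and were not tested. The same rule put 1737 of all 23188 clusters in thymic cDC2 high and 1291 in thymic cDC2 low. It put 1889 in splenic cDC2 high and 1062 in splenic cDC2 low. For thymic CD103- cells the numbers were 1534 high and 1455 low, and for splenic CD103- cells 1500 and 1303. The classes and the interaction come from the same 4 means, so the shares among called clusters partly follow from the selection. Among called clusters, thymic CD103- high numbered 38 without thymic cDC2 replicate 1, and splenic cDC2 high 25 without that array and fewer than 53 by over 1.5 times without any of the other thymic arrays. Splenic cDC2 low numbered 50 without thymic cDC2 replicate 2 and also fell by over 1.5 times without thymic CD103- replicate 2. Thymic cDC2 low numbered 35 without thymic CD103- replicate 2, and fell by over 1.5 times without thymic cDC2 replicate 1 or splenic CD103- replicate 1. The smallest classes ranged from 6 to 19 (thymic CD103- low) and from 2 to 17 (splenic CD103- low) when single arrays were left out.

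The 6 genes that mark the patterns show them array by array. Apoc1, an apolipoprotein carried on lipoproteins and a target of the sterol receptor LXR in macrophages, read 11.20 and 11.22 in thymic CD103- cells. It read 4.70 and 4.66 in thymic cDC2, 4.63 and 4.34 in splenic CD103- cells and 4.29 and 4.25 in splenic cDC2. Only thymic CD103- cells had Apoc1 above background, and the interaction was 6.32 ± 0.31 SE (limma adjusted p = 1.25e-06). With values below background raised to it, the Apoc1 interaction was 5.43. A second Apoc1 cluster was below background in all 4 groups, and its interaction of -0.48 was not called.

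Mmp14, a membrane-anchored collagenase, read 12.44 and 12.61 in thymic CD103- cells, 5.00 and 5.28 in thymic cDC2, 6.13 and 6.68 in splenic CD103- cells and 3.67 and 3.66 in splenic cDC2. It was higher in CD103- cells in both organs, by 7.39 in thymus and 2.74 in spleen, and the interaction was 4.64 ± 0.35 SE (limma adjusted p = 1.88e-05). Both cDC2 groups were below background, so the size of the splenic difference depends on the floor of the array. With values below background raised to it, the Mmp14 interaction was 6.12. Cldn1, a tight junction protein, showed the reverse case, with thymic cDC2 alone high. Cldn1 read 5.71 and 6.28 in thymic CD103- cells, 13.39 and 14.06 in thymic cDC2, 5.44 and 5.4 in splenic CD103- cells and 5.18 and 6.65 in splenic cDC2. Its interaction of -7.24 ± 0.57 SE had the largest size of the 90 called genes named here (limma adjusted p = 2.35e-05).

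Lyve1, a hyaluronan receptor of lymphatic endothelium and of some tissue macrophages, read 8.33 and 9.24 in thymic CD103- cells, 10.83 and 11.54 in thymic cDC2, 10.26 and 9.68 in splenic CD103- cells and 5.82 and 5.31 in splenic cDC2. Splenic cDC2 were low and the other 3 groups did not overlap them. The difference ran in opposite directions, with a CD103- minus cDC2 difference of -2.40 in thymus and 4.41 in spleen, and the interaction was -6.80 ± 0.49 SE (limma adjusted p = 1.88e-05). Gda, guanine deaminase, which turns guanine into xanthine, read 11.70 and 11.62 in thymic CD103- cells, 10.31 and 10.56 in thymic cDC2, 13.93 and 12.86 in splenic CD103- cells and 5.35 and 6.10 in splenic cDC2. It was higher in CD103- cells in both organs, by 1.23 in thymus and 7.67 in spleen, with an interaction of -6.44 ± 0.48 SE (limma adjusted p = 1.88e-05). Hes1, the sixth, is described with the Notch genes.

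**Figure D2:**
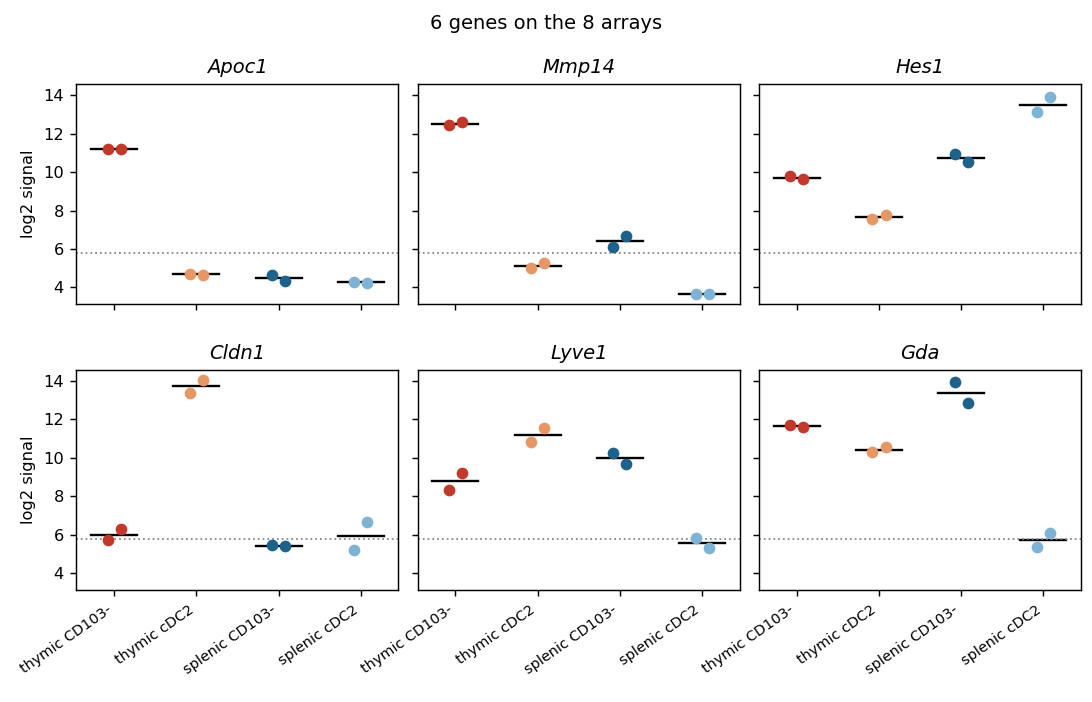
Log2 signal of Apoc1, Mmp14, Hes1, Cldn1, Lyve1 and Gda on the 8 arrays, with 1 point per array, a bar at each group mean and a dotted line at the background level of 5.78. Thymic CD103- cells alone are high for Apoc1, thymic cDC2 alone are high for Cldn1, and splenic cDC2 are the lowest group for Lyve1 and Gda and the highest for Hes1.

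The 72 clusters with thymic CD103- cells standing apart as high included the collagenases Mmp14 and Mmp8, the lysosomal genes Ctsd and Hexa, and C3 of complement. Of 25 lysosome genes, 2 had a positive called interaction and none a negative one, against 1.19% and 2.04% of all clusters. Of 24 matrix metalloproteinase and matrix genes, 4 were positive and 2 negative. The 18 Fc and complement genes split into 4 positive and 4 negative. Ttyh2, a membrane protein of the tweety family, read 12.17 and 12.67 in thymic CD103- cells and between 5.99 and 7.91 on the other 6 arrays (interaction 4.78). Mmp8, a secreted collagenase, read 9.48 and 9.71 in thymic CD103- cells and at most 5.23 elsewhere (4.25), and Fcrl2, an Fc receptor-like gene, 9.08 and 9.73 against at most 4.94 (4.36). The values in brackets are interactions, and these 3 genes had limma adjusted p of 1.88e-05 to 0.000418. C3, the central component of complement, was higher in CD103- cells in both organs, with 12.56 and 12.92 in thymic CD103- cells, 6.30 and 6.58 in thymic cDC2, 9.41 and 9.70 in splenic CD103- cells and 6.6 and 7.11 in splenic cDC2 (interaction 3.60 ± 0.36 SE, limma adjusted p = 0.000148). The lysosomal protease Ctsd read 13.55 and 13.72 in thymic CD103- cells, 9.74 and 9.87 in thymic cDC2, 8.69 and 9.06 in splenic CD103- cells and 8.38 and 8.30 in splenic cDC2. Its thymic difference of 3.83 was called and its splenic difference of 0.54 was not (limma adjusted p = 0.207), and the interaction was 3.3 ± 0.32 SE (limma adjusted p = 0.000118). The macrophage lysosomal protein Cd68 (1.75) and the integrin chain Itgav (3.0) were in the same class (limma adjusted p = 0.00603 and 0.000427).

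Only 13 clusters had thymic CD103- cells standing apart as low, against the 72 as high. Kynu, which encodes kynureninase of tryptophan breakdown, read 6.73 and 6.44 in thymic CD103- cells and between 9.18 and 9.56 on the other 6 arrays, an interaction of -2.77 ± 0.32 SE (limma adjusted p = 0.000351). Gjb2, a gap junction protein, read 6.32 and 5.76 in thymic CD103- cells, 10.24 and 9.92 in thymic cDC2, 11.36 and 9.31 in splenic CD103- cells and 9.45 and 7.90 in splenic cDC2 (interaction -5.70 ± 0.81 SE, limma adjusted p = 0.00157). The replicates of Gjb2 lay further apart in the spleen than in the thymus. Gcnt2, which builds branched sugar chains, had an interaction of -3.21 at its brightest cluster, but 2 other Gcnt2 clusters gave 0.21 and 0.82 and were not called, so its clusters disagree.

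Among called clusters, thymic cDC2 were the group that stood apart most often, as high in 168. After Cldn1 the largest interactions of this kind among genes chosen by rule were RT1-M5 (-4.88), an MHC class Ib gene, Clmn (-4.82), an actin-binding membrane protein, Nav2 (-4.65), a cytoskeletal protein, and Tmprss11d (-4.44), a membrane serine protease. RT1-M5 read 10.18 and 10.66 in thymic cDC2, and of the other 6 arrays only thymic CD103- replicate 1, at 6.28, was above background. Clmn read 5.77 and 5.82 in thymic CD103- cells, 10.36 and 10.02 in thymic cDC2, 4.86 and 4.1 in splenic CD103- cells and 3.81 and 4.30 in splenic cDC2. Limma adjusted p for these 4 genes was 3.79e-05 to 0.000175. Tcf7, a transcription factor of T cells that some dendritic cells also express, read 11.33 and 11.59 in thymic CD103- cells, 13.03 and 13.47 in thymic cDC2, 10.07 and 10.01 in splenic CD103- cells and 9.74 and 9.92 in splenic cDC2. Its interaction was -2.0 ± 0.33 SE (limma adjusted p = 0.00448), and Cd28, a costimulatory receptor of T cells, had -2.33 ± 0.39 SE (limma adjusted p = 0.00481).

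The haemoglobin scavenger receptor Cd163 was highest in thymic cDC2 among the 4 groups. It read 7.99 and 8.11 in thymic CD103- cells, 11 and 11.68 in thymic cDC2, 5.29 and 7.28 in splenic CD103- cells and 4.74 and 6.19 in splenic cDC2, while the macrophage groups averaged 16.6 in thymus and 15.98 in spleen. HIS36, by which the macrophages were sorted, was taken here as the protein of Cd163, so their high Cd163 level is set by the gate. The interaction of Cd163, -4.11 ± 0.78 SE, was called (limma adjusted p = 0.0105). Without thymic cDC2 replicate 2 it was -3.77 and without splenic cDC2 replicate 1 it was -3.39, and the call was lost in both cases. With all arrays kept and a trended, robust prior the call was also lost (limma adjusted p = 0.0673).

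In 61 clusters thymic cDC2 stood apart as low. Itgam, which encodes CD11b and pairs with Itgb2 to bind complement fragments, read 11.28 and 11.11 in thymic CD103- cells, 8.10 and 8.59 in thymic cDC2, 11.90 and 11.74 in splenic CD103- cells and 12.17 and 11.82 in splenic cDC2 (interaction 3.02 ± 0.35 SE, limma adjusted p = 0.000347). Thymic cDC2 lay below all other arrays, and the splenic difference of -0.18 was not called (limma adjusted p = 0.795). Tns3, a focal adhesion protein, had an interaction of 3.59, Sirpb2, a signal regulatory protein, 3.42, Tifab, a regulator of innate immune signalling, 3.21, and the C-type lectin Clec4a2 3.04 (limma adjusted p = 0.000244 to 0.00193). Tns3 read 13.43 and 13.72 in thymic CD103- cells, 9.35 and 9.71 in thymic cDC2, 12.52 and 13.03 in splenic CD103- cells and 12.03 and 12.61 in splenic cDC2.

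Splenic CD103- cells stood apart as high in 60 clusters, and enzymes that activated macrophages use were among the largest. Irg1 (current symbol Acod1), which makes itaconate, read 7.32 and 6.19 in thymic CD103- cells, 6.52 and 5.73 in thymic cDC2, 14.50 and 13.02 in splenic CD103- cells and 6.14 and 6.71 in splenic cDC2. Its splenic difference was 7.34 and its thymic difference of 0.63 was not called (limma adjusted p = 0.534), giving an interaction of -6.70 ± 0.66 SE (limma adjusted p = 0.000139). Nos2, inducible nitric oxide synthase, read 7.54 and 6.27 in thymic CD103- cells, 4.79 and 3.93 in thymic cDC2, 13.95 and 13.23 in splenic CD103- cells and 5.26 and 5.57 in splenic cDC2. It was higher in CD103- cells in both organs, by 2.54 in thymus and 8.18 in spleen, with an interaction of -5.63 ± 0.57 SE (limma adjusted p = 0.000151), and a second Nos2 cluster gave -6.70. Slc11a1, a metal transporter of the phagosome, had an interaction of -4.72, the sorting receptor Sorl1 -5.10, the adhesion molecule Ceacam1 -4.58 and Tlr5, the flagellin receptor, -3.68 (limma adjusted p = 1.88e-05 to 0.000495). Slc11a1 read 7.71 and 8.2 in thymic CD103- cells, 4.97 and 5.48 in thymic cDC2, 12.27 and 12.24 in splenic CD103- cells and 4.22 and 5.39 in splenic cDC2.

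Splenic CD103- cells stood apart as low in 6 clusters. Mt1a (current symbol Mt1), a metal-binding metallothionein, had an interaction of 2.44 at 1 cluster and 2.61 at another. It read 12.65 and 13.17 in thymic CD103- cells, 13.19 and 13.52 in thymic cDC2, 11.44 and 11.34 in splenic CD103- cells and 14.56 and 14.00 in splenic cDC2 (limma adjusted p = 0.00276). Fam111a, a protease that restricts some viruses, had 1.94 (limma adjusted p = 0.0071). Anxa1, annexin A1, had an interaction of 1.83 (limma adjusted p = 0.00996), which was 1.60 without thymic cDC2 replicate 2 (limma adjusted p = 0.0588).

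Splenic cDC2 stood apart as low in 92 called clusters, the second largest single-group class of the calls. The receptors Ccr1 and C3ar1 were among these clusters. Of 25 chemokine and chemoattractant receptor genes, 5 had a negative and 3 a positive called interaction, against 2.04% and 1.19% of all clusters. With values below background raised to it, 3 were negative. The positive ones included Cxcr3, which was highest in splenic cDC2. S100a4, a calcium-binding protein of motile cells, read 12.24 and 12.66 in thymic CD103- cells, 12.35 and 12.53 in thymic cDC2, 10.22 and 10.37 in splenic CD103- cells and 5.02 and 4.93 in splenic cDC2. In the thymus the S100a4 difference was 0.01 and in the spleen 5.32, an interaction of -5.31 ± 0.32 SE (limma adjusted p = 7.28e-06). Ccr1, a receptor for inflammatory chemokines, likewise differed in the spleen only, with 9.84 and 9.85 in thymic CD103- cells, 9.94 and 10.05 in thymic cDC2, 10.99 and 11.05 in splenic CD103- cells and 6.21 and 6.82 in splenic cDC2 (interaction -4.66 ± 0.34 SE, limma adjusted p = 1.88e-05). Niacr1 (current symbol Hcar2), a receptor for niacin and ketone bodies, had an interaction of -5.28, the chemokine Ccl6 -3.76, the macrophage surface protein Adgre1 -3.35 and the anaphylatoxin receptor C3ar1 -3.18 (limma adjusted p = 0.000175 to 0.00196). C3ar1 was higher in CD103- cells in both organs, by 2.91 in thymus and 6.09 in spleen.

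Splenic cDC2 stood apart as high in 53 clusters. Faim2, an inhibitor of Fas-driven cell death, read 4.31 and 4.36 in thymic CD103- cells, 4.97 and 4.25 in thymic cDC2, 6.18 and 5.64 in splenic CD103- cells and 12.52 and 12.55 in splenic cDC2, an interaction of 6.35 ± 0.39 SE (limma adjusted p = 7.28e-06). The chemokine receptor Cxcr3 read 5.39 and 5.64 in thymic CD103- cells, 5.66 and 5.54 in thymic cDC2, 8.26 and 8.17 in splenic CD103- cells and 12.53 and 12.96 in splenic cDC2 (interaction 4.44 ± 0.33 SE, limma adjusted p = 1.88e-05). Both thymic groups had Faim2 and Cxcr3 below background. Ctnnd2, a catenin of cell contacts, had an interaction of 3.0 (limma adjusted p = 0.000206). Xcr1 and Clec9a, which define cDC1, had 3.52 and 2.74 (limma adjusted p = 0.00542 and 0.00583), and their levels are set beside those of cDC1 below.

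**Figure D3:**
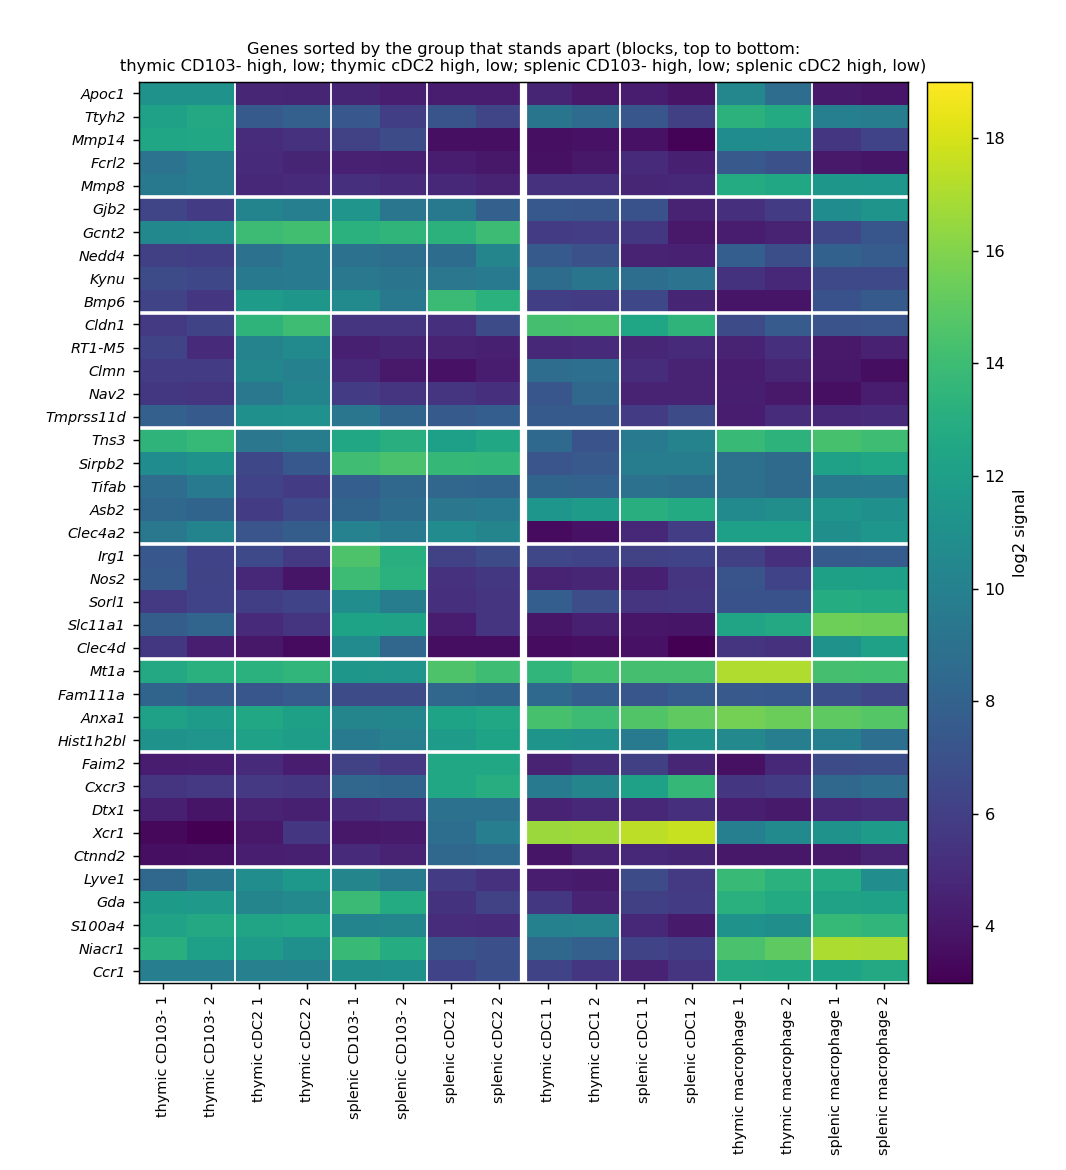
Log2 signal (colour scale 3 to 19) of the genes with the largest interactions in each class, with genes in rows and the 16 arrays in columns, the 4 groups of the interaction left of the wide white line and cDC1 and macrophages right of it. The blocks from top to bottom have thymic CD103- cells high and low, thymic cDC2 high and low, splenic CD103- cells high and low, and splenic cDC2 high and low.

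A called difference ran in opposite directions in the organs for 51 clusters, which is 0.22% of all clusters. All 51 had a called interaction, which follows largely from the selection, since differences of opposite sign add up in the interaction. In 17 of the 51 CD103- cells were higher than cDC2 in the thymus and lower in the spleen, and in 34 the reverse. Besides Lyve1, the chemokine Ccl22, which attracts Ccr4-bearing T cells, was of the second kind. Ccl22 read 16.43 and 16.27 in thymic CD103- cells, 18.15 and 17.97 in thymic cDC2, 10.44 and 9.96 in splenic CD103- cells and 7.90 and 6.88 in splenic cDC2. Both thymic groups lay above both splenic ones, by 6.15 in CD103- cells and 10.67 in cDC2, and the interaction was -4.52 ± 0.44 SE (limma adjusted p = 0.000123). Fgfr2, a fibroblast growth factor receptor, was crossed, with 5.51 and 5.49 in thymic CD103- cells, 8.03 and 8.02 in thymic cDC2, 8.11 and 7.37 in splenic CD103- cells and 5.55 and 5.5 in splenic cDC2 (interaction -4.74 ± 0.36 SE, limma adjusted p = 1.88e-05). Hpgds, which makes prostaglandin D2, had differences of -2.08 in thymus and 2.24 in spleen. Of the first kind were Hes1, the double-stranded RNA sensor Tlr3 (1.61 in thymus and -1.60 in spleen), the ubiquitin ligase subunit Asb2 (2.08 and -1.05), Lrrc58 (1.44 and -1.28) and Pla2g4a (1.87 and -0.81), the phospholipase that frees arachidonic acid. For these 5 of either kind with no array values above, limma's adjusted p of the interaction was 0.000275 to 0.00732. The count of 51 was 26 to 32 when any 1 array other than splenic CD103- replicate 2 was left out, and 44 without that array.

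**Figure D4:**
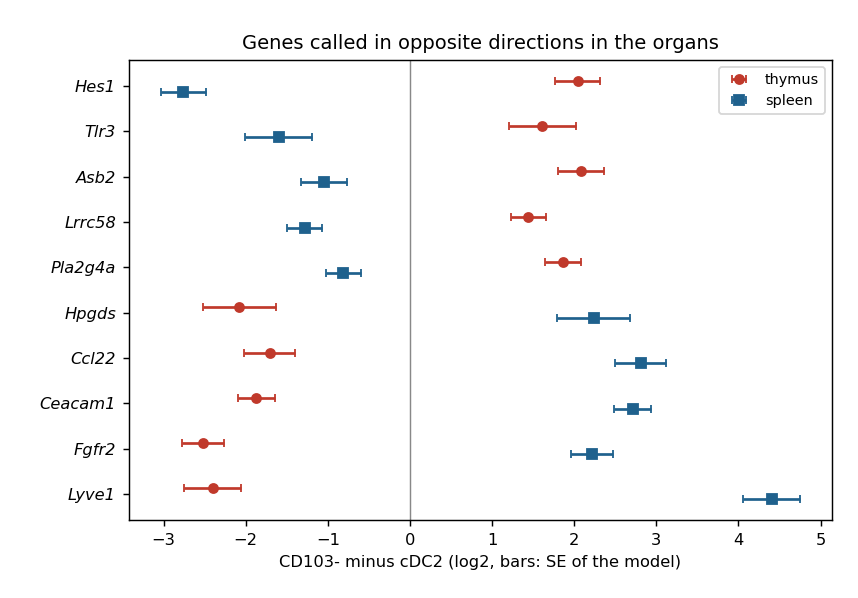
Difference between CD103- cells and cDC2 (log2, horizontal axis, bars give the SE of the model) in the thymus (red circles) and in the spleen (blue squares) for 10 genes called in opposite directions. The thymic values of Lyve1, Fgfr2, Ceacam1, Ccl22 and Hpgds lie left of 0 and their splenic values right of it, and the other 5 genes have the reverse.

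The Notch list held 25 measured genes. Of these, 3 had a positive called interaction and 1 a negative one, against 1.19% and 2.04% of all clusters. Hes1, a transcriptional repressor and direct Notch target, read 9.79 and 9.64 in thymic CD103- cells, 7.58 and 7.77 in thymic cDC2, 10.94 and 10.54 in splenic CD103- cells and 13.11 and 13.89 in splenic cDC2. The CD103- minus cDC2 difference was 2.04 in thymus and -2.76 in spleen, and the interaction was 4.8 ± 0.39 SE (limma adjusted p = 3.37e-05). The thymic minus splenic difference of Hes1 was -1.03 in CD103- cells and -5.83 in cDC2. Dtx1, a ubiquitin ligase induced by Notch, was above background in splenic cDC2 only, with 4.42 and 3.92 in thymic CD103- cells, 4.57 and 4.43 in thymic cDC2, 4.90 and 5.19 in splenic CD103- cells and 9.05 and 8.96 in splenic cDC2 (interaction 3.63 ± 0.34 SE, limma adjusted p = 9.19e-05). Lfng, a sugar transferase that tunes the response of Notch receptors to their ligands, had an interaction of 1.55 ± 0.32 SE (limma adjusted p = 0.0183). The Lfng call was lost without either thymic cDC2 array (1.53 and 1.58), thymic CD103- replicate 2 (1.46), splenic cDC2 replicate 1 (1.35) or splenic CD103- replicate 1 (1.47). The ligand Dll4 had the negative interaction, -2.35 ± 0.46 SE (limma adjusted p = 0.0125), with group means between 4.79 and 6.89. The Dll4 call was lost without thymic cDC2 replicate 2 (-2.05), thymic CD103- replicate 1 (-2.15) or splenic cDC2 replicate 2 (-2.23), and with values below background raised to it (-1.38, limma adjusted p = 0.188). The receptors Notch1 (1.33), Notch2 (0.32), Notch3 (-0.36) and Notch4 (0.29), the DNA-binding partner Rbpj (-0.27) and the targets Hey1 (0.24) and Nrarp (1.13) were not called (limma adjusted p = 0.0852 to 0.865).

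The promoters of Hes1 and Lfng are shown because both genes carry the letters TGGGAA, the core of the site that Rbpj binds, within 250 bases before and 50 bases after the start of the RefSeq gene (assembly GRCr8). Capitals mark TGGGAA or its reverse complement TTCCCA, searched on both strands. Hes1 lies on the minus strand at chr11:84212996-84213295 in this window and holds 2 matches, at -123 and -109 relative to the start. Lfng lies on the minus strand at chr12:19152869-19153168 and holds 2, at -150 and -123. The Dtx1 window has none, and 25.7% of all 33469 promoters of the same length hold at least 1, so the match is a description of these windows only.
Hes1: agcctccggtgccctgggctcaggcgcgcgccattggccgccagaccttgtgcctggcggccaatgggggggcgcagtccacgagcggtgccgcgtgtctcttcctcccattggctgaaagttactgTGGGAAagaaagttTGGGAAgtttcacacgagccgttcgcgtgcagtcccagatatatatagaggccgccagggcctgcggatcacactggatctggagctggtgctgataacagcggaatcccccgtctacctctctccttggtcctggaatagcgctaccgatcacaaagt
Lfng: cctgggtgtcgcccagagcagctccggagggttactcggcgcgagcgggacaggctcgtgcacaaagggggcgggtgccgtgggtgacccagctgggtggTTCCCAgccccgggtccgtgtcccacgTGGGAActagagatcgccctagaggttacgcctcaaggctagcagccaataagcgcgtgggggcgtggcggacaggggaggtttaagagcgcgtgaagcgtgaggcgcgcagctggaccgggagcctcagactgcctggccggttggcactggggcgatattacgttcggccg

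Interferon-induced genes, which restrict viruses, were counted as a second list with a known promoter motif, and no set test was run. The list of 28 measured interferon response genes was higher in CD103- cells for 19 members in the thymus and for 19 in the spleen, against 5.09% and 4.58% of all clusters. Of the 28, 6 had a negative called interaction, that is, a larger CD103- excess in the spleen, and 1 a positive one, against 2.04% and 1.19% of all clusters. The 6 were 2 without thymic cDC2 replicate 2 and 3 without splenic CD103- replicate 1. The median interaction was -0.77 in the list and 0.01 over all clusters. Rsad2, the antiviral enzyme viperin, read 8.4 and 8.25 in thymic CD103- cells, 6.27 and 5.81 in thymic cDC2, 10.53 and 10.16 in splenic CD103- cells and 5.67 and 5.97 in splenic cDC2 (interaction -2.24 ± 0.35 SE, limma adjusted p = 0.00307). The guanylate-binding protein Gbp2 read 13.19 and 13.03 in thymic CD103- cells, 11.25 and 11.03 in thymic cDC2, 15.73 and 15.63 in splenic CD103- cells and 11.01 and 10.76 in splenic cDC2 (interaction -2.83 ± 0.31 SE, limma adjusted p = 0.000276). The cDC2 of the 2 organs overlapped for Rsad2, and for Gbp2 they differed by 0.26 on average, so the CD103- cells carried the organ difference. Ifit3, which binds viral RNA with its partners, had -3.0 ± 0.56 SE (limma adjusted p = 0.00994), and -2.61 without thymic cDC2 replicate 2 (limma adjusted p = 0.0573). The exception in sign was Oasl2, with 2.23 (limma adjusted p = 0.00177). Ifit3 also differed between the macrophages of the organs, and averaged 9.68 in thymic and 14.61 in splenic macrophages.

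The promoters of Ifit3, Rsad2 and Gbp2 are shown for the interferon-stimulated response element, searched on both strands as GAAA, 2 bases of any kind and GAAA, and marked in capitals. Each window holds 1 match, on the reverse strand, and 3.92% of all promoters hold at least 1. The windows are chr1:241527076-241527375 on the plus strand for Ifit3, with the match at -44, chr6:48788071-48788370 on the minus strand for Rsad2, with the match at -147, and chr2:234005477-234005776 on the plus strand for Gbp2, with the match at -31.
Ifit3: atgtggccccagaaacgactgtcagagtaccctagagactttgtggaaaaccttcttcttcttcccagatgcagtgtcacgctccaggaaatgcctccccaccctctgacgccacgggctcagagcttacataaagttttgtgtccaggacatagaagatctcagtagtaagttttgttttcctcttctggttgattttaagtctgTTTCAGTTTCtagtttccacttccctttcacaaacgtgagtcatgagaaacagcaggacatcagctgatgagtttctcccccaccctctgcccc
Rsad2: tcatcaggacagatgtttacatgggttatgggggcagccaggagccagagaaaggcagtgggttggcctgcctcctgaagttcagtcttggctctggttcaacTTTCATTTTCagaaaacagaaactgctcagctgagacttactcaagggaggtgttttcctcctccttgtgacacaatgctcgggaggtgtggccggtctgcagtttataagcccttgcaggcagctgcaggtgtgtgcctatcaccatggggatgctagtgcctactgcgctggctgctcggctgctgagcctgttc
Gbp2: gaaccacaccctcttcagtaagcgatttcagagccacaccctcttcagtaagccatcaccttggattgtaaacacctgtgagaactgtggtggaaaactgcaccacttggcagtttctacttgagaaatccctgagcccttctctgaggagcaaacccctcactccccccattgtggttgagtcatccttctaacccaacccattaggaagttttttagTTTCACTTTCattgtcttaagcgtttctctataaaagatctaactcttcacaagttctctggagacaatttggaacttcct

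Of 23 resident macrophage genes, 12 were higher and 3 lower in CD103- cells than in cDC2 in the thymus, against 5.09% and 4.78% of all clusters. In the spleen 16 were higher and none lower, against 4.58% and 3.92%. The interaction was called for 4, against 3.24% of all clusters, with Cd68 positive and Cd163, Lyve1 and Adgre1 negative, and the median of the list was 0.04. The positive count of 1 was 2 without thymic CD103- replicate 2 or splenic cDC2 replicate 1, and 3 without splenic CD103- replicate 2. In CD103- cells 14 of the 23 were higher in the thymus than in the spleen, against 6.52% of all clusters, and in cDC2 16 were, against 7.63%. C1qc, a chain of the first complement component, averaged 15.84 in thymic CD103- cells, 11.68 in thymic cDC2, 11.21 in splenic CD103- cells and 7.08 in splenic cDC2, a difference of 4.16 in thymus and 4.13 in spleen. Of 20 classical monocyte genes, 2 (Itgam and Sirpb2) had a positive interaction and 6 a negative one, against 1.19% and 2.04% of all clusters, among them Cd14 (-2.92), the coreceptor for bacterial lipopolysaccharide, and S100a4. The list mean over the 23 macrophage genes was 11 to 11.2 in thymic CD103- cells, 9.15 to 9.58 in thymic cDC2, 8.72 to 9.66 in splenic CD103- cells and 6.53 to 7.01 in splenic cDC2, against 12.9 to 14.0 in the macrophage sorts. The list includes Cd163, so its mean in the macrophage sorts is partly set by their HIS36 gate. Vsig4, Marco and Trem2 were below background in all 4 groups, and Marco also in both macrophage sorts. The part of macrophages in the results on Lyve1, Cd163, Adgre1 and Cd68 was not tested.

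Of 22 pattern recognition receptor genes, which sense microbes, 7 had a negative called interaction and 1, Tlr3, a positive one, against 2.04% and 1.19% of all clusters. Negative calls made up 63.1% of all called interactions. The median of the list was -0.89, against 0.01 over all clusters. The positive count of 1 was 2 without splenic cDC2 replicate 1. The 7 were Clec4d, Tlr5, Olr1, Cd14, the beta-glucan receptor Clec7a (-2.86), the scavenger receptor Msr1 (-2.66) and the RNA helicase Ifih1 (-1.55). Olr1, a receptor for oxidised lipoprotein, read 10.63 and 9.37 in thymic CD103- cells, 5.93 and 5.61 in thymic cDC2, 14.63 and 13.53 in splenic CD103- cells and 6.50 and 6.4 in splenic cDC2 (interaction -3.40 ± 0.57 SE, limma adjusted p = 0.00461). Of 25 inflammatory and purine metabolism enzymes, 6 had a negative interaction and 2 a positive one, against the same 2.04% and 1.19%. Xdh, which oxidises xanthine to uric acid and so acts after Gda, read 10.94 and 11.11 in thymic CD103- cells, 9.90 and 10.32 in thymic cDC2, 13.60 and 13.60 in splenic CD103- cells and 8.29 and 7.44 in splenic cDC2 (interaction -4.82 ± 0.40 SE, limma adjusted p = 3.79e-05). The positive members were the cyclooxygenases Ptgs1 (2.96) and Ptgs2 (2.91), which make prostaglandins (limma adjusted p = 0.00407 and 0.00239).

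Of 38 cytokine and chemokine genes, 8 had a negative and 4 a positive called interaction, against 2.04% and 1.19% of all clusters. The positive count was 1 or 2 without any 1 of the 8 arrays, and 2 with values below background raised to it. In each organ 25 of the 38 were higher in CD103- cells, against 5.09% of all clusters in the thymus and 4.58% in the spleen. Cxcl11, an interferon-induced ligand of Cxcr3, read 9.76 and 9.10 in thymic CD103- cells, 5.38 and 4.45 in thymic cDC2, 13.10 and 12.46 in splenic CD103- cells and 4.48 and 4.6 in splenic cDC2 (interaction -3.72 ± 0.47 SE, limma adjusted p = 0.000712). The positive members with all arrays were Ccl12 (2.50), Osm (2.40), Csf1 (1.77) and Il18 (1.27). Il22ra2, a soluble receptor that neutralises its cytokine, was a cDC2 gene in both organs, with 7.77 and 7.73 in thymic CD103- cells, 15.82 and 15.98 in thymic cDC2, 8.24 and 6.88 in splenic CD103- cells and 12.97 and 12.39 in splenic cDC2 (interaction -3.03 ± 0.51 SE, limma adjusted p = 0.00512). Of 23 maturation and costimulation genes, 5 had a negative interaction and none a positive one, against 2.04% and 1.19% of all clusters. The 5 were 3 without any 1 of the 4 thymic arrays, and 1 positive call appeared without thymic CD103- replicate 2. With all arrays they were Ccl22, Il15 (-2.46), Socs2, Fscn1 and Marcksl1 (-1.63). Il15, a cytokine that sustains lymphocytes, read 8.49 and 8.15 in thymic CD103- cells, 8.87 and 9.32 in thymic cDC2, 9.49 and 9.36 in splenic CD103- cells and 7.31 and 8.17 in splenic cDC2 (limma adjusted p = 0.00497). The Socs2 call was lost without thymic cDC2 replicate 2, either thymic CD103- array, splenic cDC2 replicate 1 or splenic CD103- replicate 2 (interactions of -1.96 to -1.53). The Fscn1 call was lost without any 1 array other than splenic cDC2 replicate 1 and splenic CD103- replicate 2 (-2.42 to -1.58).

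Of 18 Fc and complement genes, 4 had a positive and 4 a negative called interaction, against 1.19% and 2.04% of all clusters. C3, Itgam, the Fc receptor Fcgr3a (2.95) and properdin, Cfp (2.18), were positive, and C3ar1, Fcgr1a (-2.23) and C6 (-1.98) were among the negative ones.

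Several lists had no called interaction, or 1, where 3.24% of all clusters were called. Lists of 10 to 30 genes would hold few calls at that share, so these counts do not set them apart from all clusters. None of 30 cell cycle genes had a called interaction. In the thymus 10 of the 30 were lower in CD103- cells than in cDC2 and none higher, and in the spleen 15 were lower and none higher, against 4.78% and 3.92% of all clusters. Mki67, a marker of dividing cells, had a CD103- minus cDC2 difference of -0.97 in thymus and -2.21 in spleen. None of 10 genes shared by conventional dendritic cells was called for the interaction either, while 5 in thymus and 6 in spleen were lower in CD103- cells. Zbtb46, a transcription factor of conventional dendritic cells, had differences of -1.37 in thymus and -2.02 in spleen, and Flt3, their growth factor receptor, of -2.25 and -1.05. None of 14 MHC class II presentation genes and of 12 plasmacytoid dendritic cell genes was called. Of 23 LXR target and lipid handling genes only Apoc1 was called, a share near the 3.24% of all clusters, and 2 were positive without splenic CD103- replicate 2 and 3 without splenic cDC2 replicate 1. Of the 23, 18 were higher in CD103- cells in thymus and 12 in spleen, against 5.09% and 4.58% of all clusters. A gene that missed the threshold is not shown to have the same difference in both organs, since the median SE of the interaction was 0.35.

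Other populations of the same organs gave values that the interaction did not use. The cDC1 organ difference, thymic minus splenic, was called for 6.17% of all clusters as higher in the thymus and for 4.83% as lower. Among the 168 clusters with thymic cDC2 high, 111 (66.1%) were also called higher in thymic than in splenic cDC1, and among the 92 with splenic cDC2 low, 53 (57.6%) were. Of the 61 with thymic cDC2 low, 36 (59%) were called lower in thymic cDC1, and of the 53 with splenic cDC2 high, 20 (37.7%) were. Cldn1 averaged 14.3 in thymic and 12.9 in splenic cDC1, and 5.92 in splenic cDC2, close to the background level of 5.78. Clmn averaged 8.79 in thymic cDC1 and 4.82 in splenic cDC1, and S100a4 10.1 and 4.51. RT1-M5 was below background in cDC1 of both organs (4.91 and 4.84). Among the 72 clusters with thymic CD103- cells high, by contrast, 12 (16.7%) were called higher in thymic cDC1.

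In macrophages 5.51% of all clusters were called higher in the thymus and 7.1% higher in the spleen. Of the 72 clusters with thymic CD103- cells high, 41 (56.9%) were also higher in thymic than in splenic macrophages, and of the 60 with splenic CD103- cells high, 41 (68.3%) were lower in thymic macrophages. Apoc1 averaged 9.57 in thymic and 4.07 in splenic macrophages, Mmp14 10.7 and 5.88, and Fcrl2 7.21 and 4.00. Nos2 averaged 6.67 in thymic and 12.05 in splenic macrophages, and Slc11a1 12.5 and 15.4. Irg1, in contrast, averaged 5.65 and 7.59, far under the 14.50 and 13.02 of splenic CD103- cells. Of the 168 clusters with thymic cDC2 high, 18 (10.7%) were higher and 20 (11.9%) lower in thymic macrophages. Of the 53 with splenic cDC2 high, 23 (43.4%) were lower in thymic macrophages, a larger share than the 37.7% in cDC1. Of the 92 with splenic cDC2 low, 28 (30.4%) were lower in thymic macrophages and 17 (18.5%) higher. Of the 61 with thymic cDC2 low, 17 (27.9%) were lower and 5 (8.2%) higher. Thymic and splenic cDC1 were isolated in the same organ-specific ways as the other dendritic cells, and macrophages of both organs with the same CD11b/c beads.

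**Figure D5:**
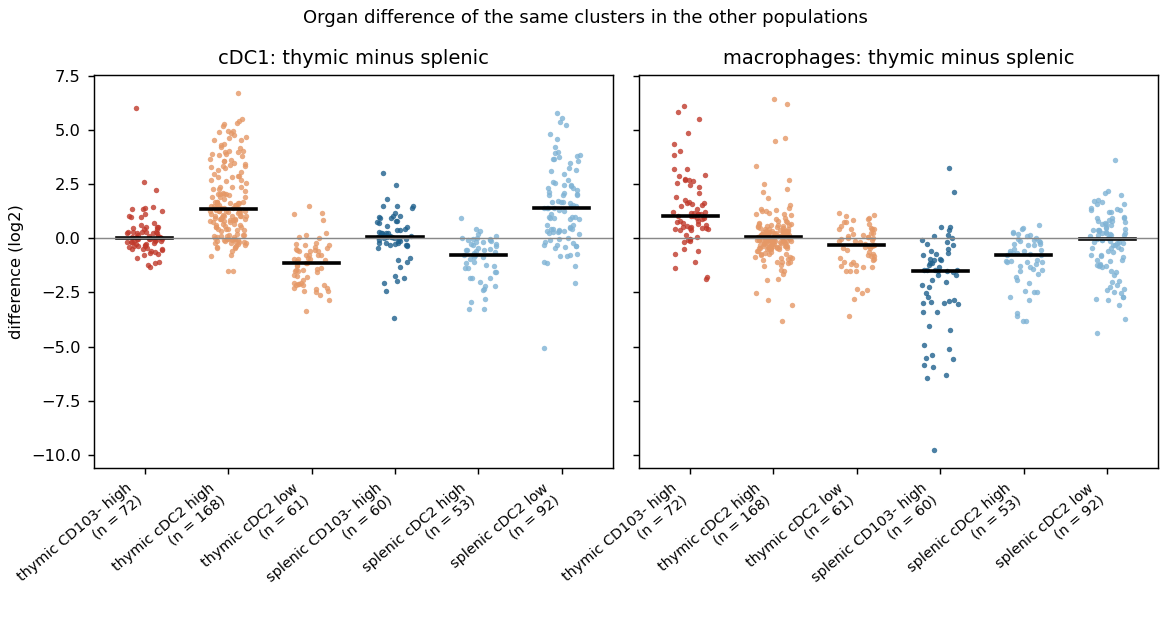
Thymic minus splenic difference (log2, vertical axis) in cDC1 (left) and in macrophages (right) of the clusters with a called interaction, sorted by the group that stood apart, with 1 point per cluster and a bar at the median. In cDC1 the median is 1.36 for clusters with thymic cDC2 high and 1.42 for those with splenic cDC2 low, and in macrophages it is 1.05 for those with thymic CD103- cells high and -1.51 for those with splenic CD103- cells high.

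Markers of other cells that a gate could hold were read in the same groups. The mean over 17 cDC1 genes was 8.27 to 8.35 in thymic CD103- cells, 8.85 to 9.13 in thymic cDC2, 8.66 to 8.68 in splenic CD103- cells and 10.0 to 10.7 in splenic cDC2, against 14.3 to 14.7 in splenic cDC1. The 17 include Itgae, the gene of CD103, by which CD103- cells and cDC2 were sorted. Its CD103- minus cDC2 differences of -7.64 in thymus and -5.335 in spleen enter these means. Part of the gap between CD103- cells and cDC2 in the list mean is thus set by the sort. Single genes did not all follow that mean. Irf8 averaged 11.82 in thymic CD103- cells, 10.95 in thymic cDC2, 12.49 in splenic CD103- cells and 10.62 in splenic cDC2, and Cd8a was also lowest in splenic cDC2 (5.29). Wdfy4 averaged 15.09 in thymic cDC2 and 14.64 in splenic cDC2. Of the 17, 5 had a positive called interaction (Cxcr3, Xcr1, Tlr3, Clec9a and Tlr11) and Itgae a negative one, against 1.19% and 2.04% of all clusters. Xcr1 read 8.77 and 9.82 and Clec9a 8.86 and 10.05 in splenic cDC2, where splenic cDC1 averaged 17.5 for each, while Cxcr3 averaged 12.7 in splenic cDC2 and 12.9 in splenic cDC1. Faim2 and Dtx1, also high in splenic cDC2, averaged 5.37 and 4.98 in splenic cDC1. The part of cDC1 in the results on Xcr1, Clec9a, Tlr3 and Tlr11 was not tested.

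Of 22 genes of T cells and thymocytes, 10 were higher and 2 lower in thymic than in splenic CD103- cells, against 6.52% and 4.95% of all clusters. In cDC2 13 were higher and 1 lower in the thymus, against 7.63% and 6.16%. The list mean was 8.03 to 8.26 in thymic CD103- cells, 8.27 to 8.75 in thymic cDC2, 7.16 to 7.17 in splenic CD103- cells and 6.93 to 7.03 in splenic cDC2. Of the 22, 4 had a negative called interaction, Cd28, Tcf7, Ptcra and Thy1, against 2.04% of all clusters, and 2 with values below background raised to it. The Thy1 interaction of -1.40 lost its call without any 1 array other than splenic CD103- replicate 2 (-1.48 to -1.11), and that of Ptcra was -0.09 with values below background raised to it. The T cell receptor chains Cd3e and Cd3d averaged 7.79 and 5.71 in thymic CD103- cells and 7.99 and 6.02 in thymic cDC2, and Cd3g was below background in all 4 groups. Rag1 was brighter, at 10.0 in thymic CD103- cells and 10.8 in thymic cDC2. In the thymus 2 of the 22 were called higher in CD103- cells than in cDC2 and 5 lower, against 5.09% and 4.78% of all clusters. Cd8b was 1 of the 2, at 11.98 in thymic CD103- cells and 8.04 in thymic cDC2, and its interaction was not called (limma adjusted p = 0.133). The part of thymocytes in the results on Cd28, Tcf7 and Thy1 was not tested. Thymic cDC2 were above background for Aire, a regulator of self antigen in thymic epithelium that some dendritic cells also express, at 6.76 and 6.94, where the other 6 arrays read 5.23 at most. The Aire interaction was -2.13, and -1.07 with values below background raised to it, which was not called (limma adjusted p = 0.193). Of 23 epithelial and stromal genes, 13 were below background in all 4 groups, with Krt18, Krt19 and Foxn1 among them. Others were well above it. Epcam averaged 10.4 in thymic and 8.8 in splenic cDC2, Cdh5 11.83 in thymic CD103- cells and 12.23 in thymic cDC2, and Kdr 12.68 in splenic CD103- cells. The interactions of Epcam, Cdh5 and Kdr were not called (limma adjusted p = 0.314 to 0.674). B cell genes had no called interaction among 13, but their mean differed between replicates, at 6.76 to 6.83 in thymic CD103- cells, 6.95 in thymic cDC2, 7.74 to 8.59 in splenic CD103- cells and 7.51 to 8.64 in splenic cDC2. NK cell, erythroid, neutrophil and platelet lists were mostly below background, in all 4 groups for 10 of 13, 8 of 11, 11 of 16 and 6 of 9 genes.

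Of 22 genes induced by tissue dissociation, 2 had a positive and 1 a negative called interaction, against 1.19% and 2.04% of all clusters. The positive count was 1 without any 1 array other than thymic CD103- replicate 2 and splenic CD103- replicate 2, and 6 with a trended, robust prior. The negative count was 0 without thymic cDC2 replicate 1, thymic CD103- replicate 2, splenic cDC2 replicate 1 or splenic CD103- replicate 1. Klf4, an immediate early transcription factor, read 10.06 and 9.57 in thymic CD103- cells, 8.54 and 7.86 in thymic cDC2, 11.70 and 11.05 in splenic CD103- cells and 12.65 and 12.07 in splenic cDC2 (interaction 2.60 ± 0.45 SE, limma adjusted p = 0.00588). The list mean was 14.7 to 15.2 in thymic CD103- cells, 14.1 to 14.5 in thymic cDC2, 15.0 to 15.2 in splenic CD103- cells and 15.0 in splenic cDC2. The part of dissociation in the Hes1 and Klf4 results was not tested.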

How the data were processed

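RNA of sorted cells was hybridised to Clariom S rat arrays, 2 arrays in each of 8 groups, of which the 4 groups with CD103- cells and cDC2 entered the comparison. The deposited values are log2 signals with 2 decimals for 23188 transcript clusters, made by the authors with Transcriptome Analysis Console per the submitters' processing notes. Its version and the normalization are not given in the sources used here, and the 2 deposited tables held the same values. Of the clusters, 21502 carry 1 gene symbol, 1673 several and 13 none. Scanner intensities were not used here, so only the small number of arrays is known to limit the precision.

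A linear model of the 4 groups was fitted to the values as deposited in R 4.3.3 by limma's lmFit and eBayes (limma 3.58.1; 4 residual and 8.41 prior degrees of freedom), and the interaction and its 4 simple differences were tested two-sided. P-values were adjusted by Benjamini-Hochberg over all 23188 clusters, and an adjusted p under 0.05 was called. The cDC1 and macrophage arrays had a fit of their own. The fit was also run on simulated data with independent normal noise, no background floor and no organ difference shared by both populations. That run therefore does not show how the fit behaves near background. A gene with several clusters is given by its brightest cluster, unless another is named. The named genes were the 6 markers and the sort genes; up to 5 called genes per class with both arrays of that group beyond the other 6; up to 5 per sign called in opposite directions; and up to 4 called members of each list, each by the size of the interaction. Other called list members are named after their values were seen. The members and the 28 gene lists were chosen with earlier results of these data known, and the background level from olfactory receptor clusters was chosen after seeing the data. Symbols were updated through RefSeq, which also gave the promoters. Alternatives covered normalization, filters, the model, the background and each array left out. Some results on withheld items are not reported here.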

Additional observations from a re-analysis of the deposited data

Results flagged for a closer look

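The difference between CD103- cells and cDC2 itself differed between the thymus and the spleen for 751 clusters by the interaction test (limma, adjusted p under 0.05), and called genes chosen by the rule for named genes are given by the group that stood apart, each with its interaction on the log2 scale. Positive values mean a larger CD103- minus cDC2 difference in the thymus. No explanation of these differences was tested. With thymic CD103- cells high, the interactions were those of Apoc1 (6.32), Ttyh2 (4.78), Mmp14 (4.64), Fcrl2 (4.36), Mmp8 (4.25), C3 (3.6), Ctsd (3.3), Itgav (3), Sparc (2.72), Cd68 (1.75) and Hexa (1.52). With thymic CD103- cells low, the interactions were those of Gjb2 (-5.7), Gcnt2 (-3.21), Nedd4 (-2.79), Kynu (-2.77) and Bmp6 (-2.24). With thymic cDC2 high, the interactions were those of Cldn1 (-7.24), RT1-M5 (-4.88), Clmn (-4.82), Nav2 (-4.65), Tmprss11d (-4.44), Cd163 (-4.11), Cdh17 (-3.09), Cd28 (-2.33), Fscn1 (-2.23), Aire (-2.13), Tcf7 (-2) and Prg2 (-1.77). With thymic cDC2 high, the interactions were those of Ptcra (-1.68) and Thy1 (-1.4). With thymic cDC2 low, the interactions were those of Tns3 (3.59), Sirpb2 (3.42), Tifab (3.21), Asb2 (3.12), Clec4a2 (3.04), Itgam (3.02) and Pla2g4a (2.67). With splenic CD103- cells high, the interactions were those of Irg1 (-6.7), Nos2 (-5.63), Sorl1 (-5.1), Slc11a1 (-4.72), Clec4d (-4.68), Ceacam1 (-4.58), Tlr5 (-3.68), Il6 (-3.04), Ifit3 (-3), Vcan (-3), Gbp2 (-2.83) and Isg15 (-2.55). With splenic CD103- cells high, the interactions were those of Ccl5 (-2). With splenic CD103- cells low, the interactions were those of Mt1a (2.44), Fam111a (1.94), Anxa1 (1.83) and Hist1h2bl (1.42). With splenic cDC2 high, the interactions were those of Faim2 (6.35), Cxcr3 (4.44), Dtx1 (3.63), Xcr1 (3.52), Ctnnd2 (3), Clec9a (2.74) and Lfng (1.55). With splenic cDC2 low, the interactions were those of Lyve1 (-6.8), Gda (-6.44), S100a4 (-5.31), Niacr1 (-5.28), Ccr1 (-4.66), Ccl6 (-3.76), Adgre1 (-3.35) and C3ar1 (-3.18). No single group stood apart for Xdh (-4.82), Hes1 (4.8), Fgfr2 (-4.74), Ccl22 (-4.52), Hpgds (-4.32), Cxcl11 (-3.72), Cmklr1 (-3.54), Olr1 (-3.4), F13a1 (-3.32), Tlr3 (3.21) and Il22ra2 (-3.03). No single group stood apart for Lrrc58 (2.72), Klf4 (2.6), Il15 (-2.46), Dll4 (-2.35), Itgae (-2.31), Rsad2 (-2.24), Egr2 (-1.94), Socs2 (-1.89) and Fosb (1.41). The Vcan interaction was -1.69 and not called with values below background raised to it (limma adjusted p = 0.123). Il6, Isg15, Fosb and Thy1 each lost the call in 10 of 17 settings, and Hist1h2bl and Fscn1 in 9. F13a1 and Bmp6 lost it in 7, and Egr2, Hexa, Lfng and Socs2 in 5. All of the genes above that lost it in any setting are counted with the settings below.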

How the results depend on the processing

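Results were recomputed under alternatives of normalization, filter, model and background and with each array left out. Of the 90 called genes named here, 64 kept their call under every alternative run for them, 26 lost it under at least 1, and none reversed. With 1 array left out, its group is 1 array that is assumed to vary like the others. The interaction was then called for 463 to 746 clusters, 144 to 273 positive and 304 to 473 negative. The thymic difference was called for 1296 to 2304, the splenic difference for 1333 to 1847, the organ difference of CD103- cells for 1444 to 2698 and that of cDC2 for 2070 to 3238. Clusters called in opposite directions numbered 26 to 44, and a single group stood apart in 332 to 509. The lowest numbers of interaction calls came without thymic cDC2 replicate 1 (463), thymic cDC2 replicate 2 (480) or thymic CD103- replicate 2 (485). The alternatives that kept all arrays gave 611 calls with values below background raised to it, of which 594 were among the 751, and up to 921.

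The labels do not say that equal replicate numbers share an animal or a day, and the correlations of same-numbered deviations were 0.051 to 0.176. With the replicate number as a block, 921 clusters were called, the 751 and 170 more, so no call was lost. The other settings that kept all arrays moved each of these counts by less than 1.5 times. Values near background, in 249 of the 751 clusters, limit how far the size of a difference can be read. The classes of the group that stood apart moved more. With all arrays kept, thymic CD103- low numbered 10 to 26 against 13, splenic CD103- low 3 to 21 against 6, and splenic cDC2 low 52 to 110 against 92, with the lowest of each when the gap had to exceed 0.6 of the range. With single arrays left out, thymic CD103- high numbered 38 to 76 against 72, thymic cDC2 high 116 to 140 against 168, thymic cDC2 low 35 to 57 against 61, splenic CD103- high 40 to 81 against 60, splenic cDC2 high 25 to 54 against 53, and splenic cDC2 low 50 to 98 against 92.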
